A study of Caenorhabditis elegans with 16 samples.

Results

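The response of *osm-3* mutants to tunicamycin (TM) was measured in 8 of the 16 RNA sequencing libraries of the series, 4 from TM-treated and 4 from vehicle-treated *osm-3(dh441)IV* animals. *osm-3* encodes a kinesin that carries cargo along sensory cilia. The allele holds an early stop codon, and the mutants lack full cilia on their amphid neurons and do not take up the dye DiI. Whole day 1 adult hermaphrodites were kept for 6 hr on plates with 10 µg/mL TM or on control plates, in 4 biological replicates, and the same was done with 4 and 4 libraries of wild-type (WT) animals, which serve here only as a comparison. The TM and vehicle libraries that carry the same replicate number were treated as a pair. The genes described are the 4115 of 8347 named genes whose mean over all 16 libraries was 1 log2 unit or more above the table minimum. *osm-3* itself was not analysed here, so the mutant labels could not be checked on the mutated gene.

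TM blocks the first step of N-glycan synthesis in the endoplasmic reticulum (ER). Proteins that lack their glycans misfold there, and in WT worms the unfolded protein response then raises chaperones of the BiP family (*hsp-3*, *hsp-4*), protein disulfide isomerases and components of ER-associated degradation. Worms also meet foreign molecules with cytochrome P450 enzymes, UDP-glucuronosyltransferases, glutathione S-transferases and export pumps, most of them made in the intestine.

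Values are variance-stabilized counts on the log2 scale (VST values), on which a gene without reads sits at 6.68, so that differences of weakly expressed genes are understated. Reads on named genes ranged from 4173301 to 7928905 in these 8 libraries, and both libraries of pair 3 were the shallowest of them, with 4173301 reads for vehicle and 4254496 for TM. Defining genes of intestine, muscle, hypodermis, neurons, germline and sperm all had reads in the *osm-3* libraries. No 2 libraries of a group were alike within sampling noise, since the chi-square per degree of freedom over genes was at least 5.05. The samples are whole animals, in which fewer cells of a type and less RNA per cell cannot be told apart.

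In the *osm-3* mutants, TM moved many genes a little. With the replicate number as a block, 130 genes were higher under TM (3.16% of the 4115 tested) and 212 were lower (5.15%), together 342 genes (8.31%), at an adjusted p of 0.05 (limma, Benjamini-Hochberg over all genes tested). The median change was 0.37 on the log2 scale among the genes that rose and −0.39 among those that fell, and 8 genes rose and 1 gene fell by more than 1 log2 unit. Irrespective of the test, 570 genes were higher (13.9%) and 1065 were lower (25.9%) in all 4 pairs, while 2480 had mixed signs. Of the genes that passed the test, 123 of the 130 rose in all 4 pairs and 207 of the 212 fell in all 4.

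These counts rested on the pairing and on single pairs. Without the block, 8 genes were higher and 3 were lower, all of them among the genes called with it. Without pair 3, 0 genes passed in limma, with a smallest adjusted p of 0.0528, although 753 genes had an unadjusted p under 0.05. All 130 higher and all 212 lower genes kept their direction. Most of them had 1 sign in all 4 pairs, so leaving out a pair could not turn them. Without pair 1, 47 genes were higher and 17 lower, without pair 2 155 and 70, and without pair 4 232 and 608. Limma voom on the recovered reads of all 4 pairs called 130 genes higher and 206 lower. The values of the 4 TM libraries lay wholly above the 4 vehicle values for 72 genes (1.75%) and wholly below for 45 (1.09%), and 44 of the higher and 11 of the lower genes that passed the test were among these. The results below are therefore given pair by pair.

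The largest decrease among genes that passed the test was in a gene of drug metabolism, and 2 other decreases of such genes were among the 10 largest. *cyp-35A2*, a cytochrome P450 of the intestinal CYP-35 group that many foreign compounds induce (chromosome V, 7362319 to 7364182, WBcel235), had VST values of 9.41, 9.47, 9.56 and 9.45 in vehicle libraries 1 to 4. Under TM they were 8.38, 8.42, 8.19 and 7.79. The groups did not overlap, and the change was −1.28 ± 0.10 (SE, n = 4 pairs; adjusted p = 6.54e-05, limma). Its relative *cyp-35C1* had vehicle values of 8.42, 8.58, 8.68 and 8.52 and fell by 0.47, 0.58, 0.78 and 0.88 on the log2 scale in pairs 1 to 4. Here too every TM value was below every vehicle value (mean −0.68 ± 0.07, adjusted p = 0.000656, limma). *ugt-22*, a UDP-glucuronosyltransferase gene, went from 10.96, 11.13, 11.21 and 10.93 to 10.53, 10.44, 10.49 and 10.08, again without overlap (−0.67 ± 0.09, adjusted p = 0.00147, limma). All 3 decreases passed the test without the block as well.

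Other members of these families rose. *ugt-1* had vehicle values between 8.12 and 8.44 and rose by 0.85, 0.56, 0.75 and 0.37 in pairs 1 to 4, without overlap of the groups (mean 0.63 ± 0.08, adjusted p = 0.0014, limma). Its neighbour *ugt-2* on chromosome V rose by 0.54 ± 0.10, *ugt-44* by 0.44 ± 0.11 and *ugt-21* by 0.33 ± 0.07. Of the 25 UDP-glucuronosyltransferase genes tested, 4 passed as higher (all tested genes, 3.16%) and 1 as lower (5.15%), 11 were higher in all 4 pairs (13.9%), and the median difference was 0.07 against −0.04 over all genes tested. Among 21 cytochrome P450 genes, 3 rose (all tested genes, 3.16%) and the 2 *cyp-35* genes fell (5.15%), with a median of 0.09. The increases were those of *cyp-13A12* by 0.40 ± 0.09, *cyp-25A2* by 0.28 ± 0.08 and *cyp-33C4* by 0.26 ± 0.06. *cyp-33C4* was weakly expressed, with a vehicle mean of 7.67, and higher values in other libraries brought it into the test. Of 6 glutathione S-transferase genes, *gst-22* rose by 0.30 ± 0.07, and 4 were higher in all 4 pairs (all tested genes, 13.9%).

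**Figure D1:**
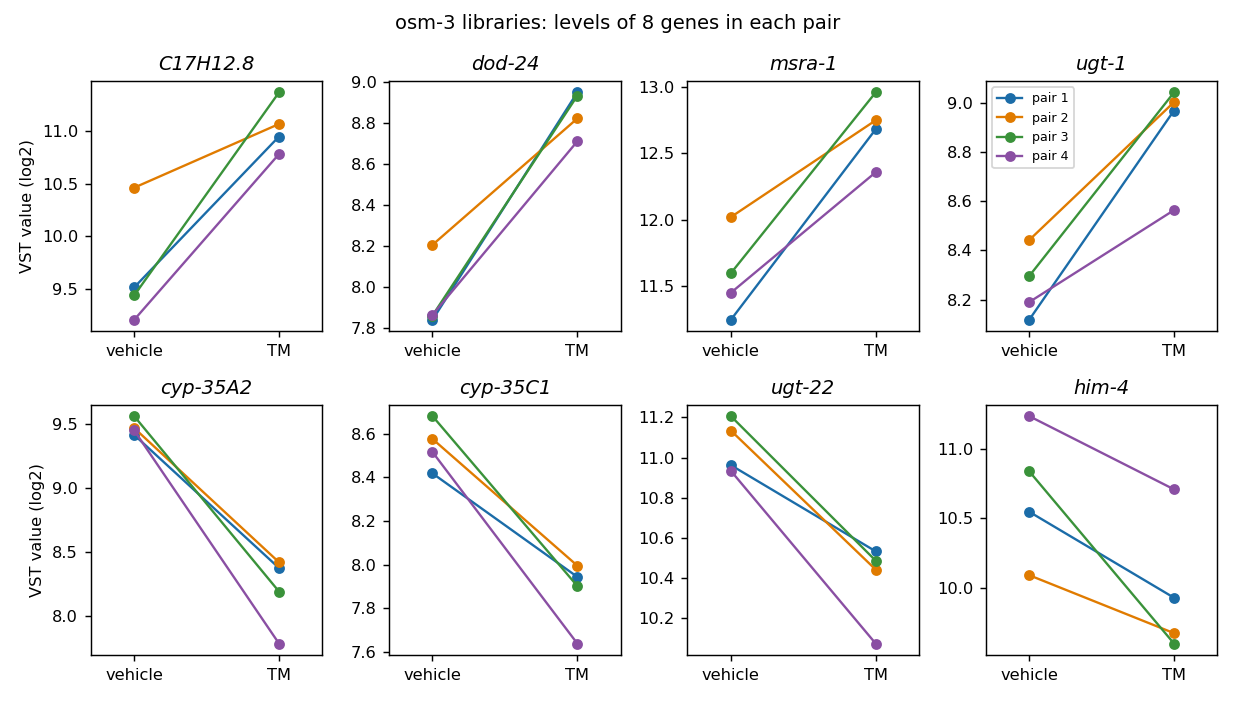
VST values (log2) of 8 genes in the vehicle and TM libraries of *osm-3* mutants, with a line for each of the 4 pairs. In *cyp-35A2*, *cyp-35C1*, *ugt-22*, *C17H12.8*, *dod-24*, *msra-1* and *ugt-1* the 2 groups do not overlap, while in *him-4* they overlap although every pair falls.

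Of the P-glycoprotein genes, which encode ATP-driven pumps that export drugs, 1 of 9 tested passed, a share near the 8.31% of all tested genes. *pgp-5* had vehicle values of 8.06, 8.53, 8.23 and 7.95 and TM values of 8.76, 8.64, 8.78 and 8.39. It was higher in all 4 pairs but the groups overlapped, and it rose by 0.45 ± 0.09 (adjusted p = 0.0175, limma). *pgp-9* differed by 0.70, −0.41, 0.90 and 0.49 in pairs 1 to 4, and pair 2 went against the others (mean 0.42 ± 0.16, adjusted p = 0.107, limma). *pgp-2* was lower in all 4 pairs and did not pass (−0.21 ± 0.08, adjusted p = 0.0943, limma). *pgp-4*, *pgp-10*, *pgp-11*, *pgp-12*, *pgp-13* and *pgp-14* lay between −0.03 and 0.09, with no common sign over the pairs in any of them. With a correction for transcript length, the median of the 9 genes went from 0.05 to 0.23, and *pgp-4* (0.27, adjusted p = 0.0377, limma) and *pgp-9* (0.60, adjusted p = 0.0444, limma) passed beside *pgp-5*. Of 16 other ABC transporter genes, 2 fell (all tested genes, 5.15%). They were *mrp-4*, by 0.47 ± 0.12 on the log2 scale, and *ced-7*, which acts in the engulfment of dying cells, by 0.40 ± 0.10. *ced-7* lost its call with the length correction (−0.18, adjusted p = 0.115, limma) and with quantile normalization (−0.24, adjusted p = 0.0839, limma). The median of the 16 genes was −0.16, or 0.05 with the length correction and −0.08 with quantile normalization. Among 45 nuclear hormone receptor genes, *nhr-17* rose by 0.38 ± 0.08 and *nhr-19* by 0.25 ± 0.06, a share near the 3.16% of all tested genes, and none fell. *nhr-8*, a receptor needed for xenobiotic resistance, was higher in all 4 pairs by 0.27, 0.02, 0.63 and 0.27 (mean 0.30 ± 0.09, adjusted p = 0.056, limma).

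Of the genes for secreted immune effectors of the intestine, 6 of 26 tested rose (all tested genes, 3.16%) and none fell. *C17H12.8*, which encodes a CUB-like protein induced by pathogens (chromosome IV, 6818703 to 6820575), had the largest increase that recurred in all 4 pairs. Its TM values were 10.95, 11.07, 11.37 and 10.78, which lay above the vehicle values of the same pairs by 1.44, 0.61, 1.93 and 1.58. The groups did not overlap, with the highest vehicle value and the smallest difference in pair 2 (mean 1.39 ± 0.16, adjusted p = 0.000722, limma). *dod-24*, another CUB-like gene that is controlled by DAF-16, went from 7.84, 8.21, 7.86 and 7.87 to 8.95, 8.82, 8.93 and 8.71 (0.91 ± 0.08, adjusted p = 0.000242, limma). *dod-20* rose by 0.47 ± 0.08, *cld-9* by 0.37 ± 0.08, *C29F3.7* by 0.36 ± 0.07 and *irg-6* by 0.27 ± 0.06. Of the 26, 12 were higher in all 4 pairs (13.9%), and the median was 0.13. The 10 genes of the p38 pathway that controls many of these effectors gave 0 calls in limma and in voom, with 1 lower gene at an unadjusted p under 0.05, and their median was −0.01 (0.0066 after quantile normalization, and 0.07 after a correction for transcript length). *clec-41*, a C-type lectin gene, rose by 0.47 ± 0.12 with 3 of 4 pairs higher. It was the only 1 of 24 *clec* genes to pass, a share near the 3.16% of all tested genes that rose.

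In the epidermis, 2 of 12 tested antimicrobial peptide genes of the *nlp-29* type rose (all tested genes, 3.16%). *nlp-27* rose by 0.29, 0.40, 0.48 and 0.31 in pairs 1 to 4 (0.37 ± 0.08, adjusted p = 0.0207, limma), and *fipr-5* by 0.24 ± 0.06. Of the 12, 6 were higher in all 4 pairs (13.9%) and none was lower in all 4, with a median of 0.17. *nlp-29* itself differed by 0.24 ± 0.08 with 3 of 4 pairs higher and did not pass (adjusted p = 0.088, limma).

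Among 54 F-box, MATH and SKP genes, which encode parts of ubiquitin ligases or their relatives, 7 rose (all tested genes, 3.16%) and none fell, and 18 were higher in all 4 pairs (13.9%) while 4 were lower. *fbxa-58* rose by 0.53 ± 0.09, *C10C5.2* by 0.44 ± 0.10, *skr-3* by 0.41 ± 0.08 and *fbxa-53* by 0.35 ± 0.07. The median of the class was 0.04, against −0.04 over all tested genes. Some *fbxc* genes had equal values in every library and may share reads.

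Some genes of oxidative, metal and heat stress rose. *msra-1* encodes a methionine sulfoxide reductase that repairs oxidized methionine. It went from 11.25, 12.02, 11.60 and 11.45 to 12.68, 12.75, 12.96 and 12.36 without overlap (1.11 ± 0.12, adjusted p = 0.000656, limma). *cdr-2*, a relative of a cadmium-induced gene, rose by 0.83, 0.16, 1.12 and 0.91 (0.75 ± 0.12). These were the 2 of 12 tested genes in the oxidative and metal class that passed (all tested genes, 8.31%), and none fell. Of the 12, 8 were above 0, 5 were higher in all 4 pairs (all tested genes, 13.9%) and none was lower in all 4, with a median of 0.11.

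*F44E5.5* encodes a cytosolic chaperone of the Hsp70 family that heat induces. Its vehicle values were 12.42, 11.65, 11.26 and 10.24 and its TM values 13.39, 12.38, 12.30 and 10.89. The libraries of a group differed by more than TM changed them, and the groups overlapped, but the 4 pairs rose by 0.97, 0.74, 1.04 and 0.64 (0.85 ± 0.09, adjusted p = 0.000656 with the block and 0.479 without it, limma). *hsp-70* showed the same kind of spread and rose by 0.37 ± 0.08. *F44E5.5* has a near-identical neighbour, *F44E5.4* (0.18 ± 0.14, adjusted p = 0.392, limma), and reads may have been divided between them, so the split is uncertain. The other 11 tested genes of the heat shock and chaperonin class did not pass, and the median was −0.09.

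**Figure D2:**
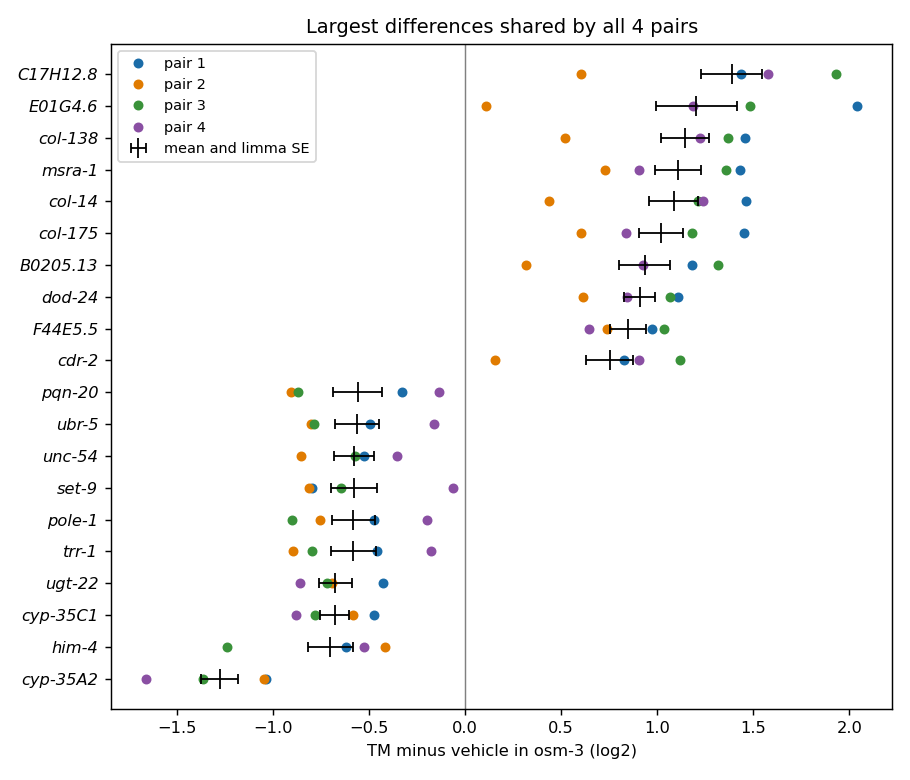
TM minus vehicle in *osm-3* mutants (log2) for 20 genes that passed the test and had 1 sign in all 4 pairs, the 10 with the largest increase and the 10 with the largest decrease, with a point for each pair and the mean with its limma SE in black. The increases reach 1.39 (*C17H12.8*), *cyp-35A2* at −1.28 stands apart from the other decreases, and pair 2 (orange) is the smallest difference in most increases.

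Cuticle collagen genes gave the largest group of increases. Of 40 tested *col* genes, 12 rose (all tested genes, 3.16%) and none fell, 31 were above 0 and the median was 0.21. *col-138* went from 9.04, 8.84, 8.39 and 8.90 to 10.49, 9.36, 9.76 and 10.12 without overlap (1.14 ± 0.12, adjusted p = 0.000656, limma). *col-14* rose by 1.09 ± 0.13, *col-175* by 1.02 ± 0.11, *col-62* by 0.68 ± 0.13 and *col-60* by 0.61 ± 0.09. These, with *col-39*, *col-111*, *col-113*, *col-114* and *col-145*, were the 10 that were higher in all 4 pairs. *col-107* and *col-7* passed with 3 of 4 pairs higher. Collagens of this family are similar in sequence, and reads may have been divided among them.

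The size of the collagen differences varied between pairs. The median over the 40 *col* genes was 0.50 in pair 1, 0.03 in pair 2, 0.20 in pair 3 and 0.01 in pair 4. The collagens and cuticle genes that set body shape split further. *dpy-5* differed by 2.02, −0.33, 2.09 and 1.58 in pairs 1 to 4 and passed the test with pair 2 against the others (1.34 ± 0.29, adjusted p = 0.0236, limma), and so did *sqt-2* (0.93 ± 0.25). *sqt-1* (1.12 ± 0.32) and *sqt-3* (0.73 ± 0.22) did not pass. Over the 8 genes of that class the medians were 1.26, −0.51, 0.92 and 0.90, and none had 1 sign in all 4 pairs. *E01G4.6* rose with the collagens by 2.04, 0.11, 1.48 and 1.19 (1.20 ± 0.21 as mean and SE, adjusted p = 0.0133, limma), and *F41F3.3* by 1.81, −0.08, 1.88 and 1.55 (1.29 ± 0.24, adjusted p = 0.0169, limma). The summed normalised count of 11 hypodermal markers, some of them collagens, ran from 7555 to 8788 in the vehicle libraries and from 5625 to 11292 under TM, with the lowest TM value in pair 2. The part of hypodermal RNA content in the collagen differences was not tested.

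In fatty acid metabolism, 3 of 33 tested genes, all of beta-oxidation, rose (all tested genes, 3.16%). Another 2, of synthesis and desaturation, fell, a share near the 5.15% of all tested genes. Of the 33, 6 were higher in all 4 pairs (13.9%) and 10 were lower (25.9%). *acox-1.5*, an acyl-CoA oxidase, rose by 0.97, 0.47, 0.93 and 0.62 (0.75 ± 0.09, adjusted p = 0.000856, limma), and the enoyl-CoA hydratase genes *ech-9* and *ech-3* rose by 0.50 ± 0.06 and 0.28 ± 0.07. *ech-9* was weakly expressed in the *osm-3* vehicle libraries, and higher values in other libraries brought it into the test. *fat-7*, a stearoyl-CoA desaturase, went from 11.79, 11.72, 11.91 and 11.64 to 11.45, 11.48, 11.46 and 11.02 without overlap (−0.41 ± 0.09, adjusted p = 0.0241, limma). *fasn-1*, the fatty acid synthase, fell by 0.14, 0.90, 0.58 and 0.15 on the log2 scale in pairs 1 to 4 (mean −0.44 ± 0.12, adjusted p = 0.0473, limma). It lost its call with the length correction (−0.17, adjusted p = 0.173) and with quantile normalization (−0.29, adjusted p = 0.139), and *fat-7* lost it with quantile normalization (−0.25, adjusted p = 0.108, limma). The remaining 28 genes of this class did not pass, and its median was −0.06 (0.0042 with the length correction). The 2 tested vitellogenin genes, for yolk proteins, were lower in all 4 pairs but did not pass. *vit-5* differed by −0.46, −1.24, −0.12 and −0.26, so its mean of −0.52 ± 0.16 came largely from pair 2 (adjusted p = 0.0602, limma).

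Some enzymes outside these classes, chosen after their values were seen, also rose in all 4 pairs. *cat-4* (0.50 ± 0.09, adjusted p = 0.0133, limma) and *ptps-1* (0.44 ± 0.10, adjusted p = 0.0236, limma) encode 2 enzymes of tetrahydrobiopterin synthesis. *sqrd-1*, a mitochondrial enzyme that oxidizes hydrogen sulfide, went from 9.15, 9.09, 8.89 and 8.74 to 9.65, 9.55, 9.54 and 9.21 without overlap (0.52 ± 0.07, adjusted p = 0.00147, limma). *asp-12*, an aspartyl protease gene, rose by 0.56 ± 0.08 and was 1 of 9 tested genes of the aspartyl and cathepsin class to pass (all tested genes, 8.31%).

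Of the 14 tested ER folding genes, 1 passed the test in *osm-3* mutants, a share near the 8.31% of all tested genes. *dnj-7*, a co-chaperone of BiP, went from 9.36, 9.51, 9.58 and 9.42 to 9.93, 9.69, 9.79 and 9.66 without overlap (0.30 ± 0.08, adjusted p = 0.0412, limma). *hsp-4*, the stress-induced BiP, had vehicle values of 12.30, 12.17, 12.33 and 12.58 and TM values of 12.68, 12.39, 12.13 and 12.68. The groups overlapped and pair 3 went down, and the difference of 0.12 had a 95% interval from −0.11 to 0.35 (adjusted p = 0.439, limma). The interval of *hsp-3* ran from −0.21 to 0.25, around 0.02. *pdi-6* and *C14B9.2*, protein disulfide isomerase genes, were higher in all 4 pairs without overlap of the groups and did not pass (0.28 ± 0.09, adjusted p = 0.0627, and 0.22 ± 0.07, adjusted p = 0.0793, limma). They passed in 7 and 4 of 17 alternatives, among them the length correction (adjusted p = 0.0243 for both, limma) and, for *pdi-6*, quantile normalization (adjusted p = 0.0095). *pdi-2* differed by 0.07 ± 0.11, and *pdi-1* was lower in all 4 pairs by a mean of 0.20 with an interval from −0.40 to 0.01. The prolyl isomerases *cyn-5*, *fkb-3*, *fkb-5* and *fkb-7* lay between −0.06 and 0.19, and *erp-44.1*, *erp-44.2* and *phy-2* between −0.13 and 0.05.

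The ER stress sensors and the degradation machinery gave 0 calls in limma and in voom, with 4 lower and no higher genes at an unadjusted p under 0.05. Of 12 tested genes, 11 were below 0 and 7 were lower in all 4 pairs (all tested genes, 25.9%), with a median of −0.17, or −0.06 with quantile normalization and −0.08 if corrected for length. They were *cdc-48.1* and *cdc-48.2*, which encode the ATPase that pulls proteins from the ER membrane (−0.38 ± 0.11 and −0.33 ± 0.11), its partners *ufd-1* and *ufd-3*, the sensor *ire-1*, and *sel-1* (0.04 with quantile normalization) and *hrdl-1* of the ubiquitin ligase complexes. The smallest adjusted p was that of *cdc-48.1* at 0.0534 (limma), and the medians in pairs 1 to 4 were −0.11, −0.08, −0.40 and −0.03. *atf-6* (−0.09 ± 0.06), *ubc-6* (−0.17 ± 0.08), *cup-2* (−0.02 ± 0.09) and *C47E12.3* (−0.01 ± 0.07) were lower in 3 of 4 pairs, and *F09E8.2* (0.03 ± 0.07) in 2. In ER to Golgi transport, *arf-1.1* rose by 0.49 ± 0.07 (adjusted p = 0.00296, limma) as 1 of 16 tested genes (all tested genes, 3.16%). It was weakly expressed, with 15, 35, 17 and 10 reads in *osm-3* vehicle libraries 1 to 4. Its vehicle mean of 7.29 was less than 1 log2 unit above the minimum, so higher values in other libraries brought it into the test. The same held for *ech-9* (7.50) and *cyp-33C4* (7.67). None of 10 genes of N-glycosylation and translocation passed in limma or voom, with 2 higher and 5 lower at an unadjusted p under 0.05.

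Genes of sugar nucleotides and phosphatidylcholine synthesis gave single calls. *gfat-1*, the rate-limiting enzyme of the hexosamine pathway that makes the sugar donor of N-glycans, went from 12.17, 11.88, 12.16 and 12.42 to 11.90, 11.27, 11.39 and 12.36. It was lower in all 4 pairs, the groups overlapped, and pair 4 fell by only 0.06 on the log2 scale (mean −0.43 ± 0.12, adjusted p = 0.0417, limma). It lost its call with the length correction (−0.33, adjusted p = 0.0524) and with quantile normalization (−0.26, adjusted p = 0.105, limma). *bre-1*, a GDP-mannose dehydratase of glycolipid synthesis, rose by 0.89, 0.52, 0.42 and 0.15 (0.50 ± 0.10, adjusted p = 0.0193, limma). *gale-1*, the UDP-galactose epimerase, was higher in all 4 pairs by 0.49, 0.42, 0.18 and 0.08 and did not pass (0.29 ± 0.09, adjusted p = 0.056, limma). These were the leading genes of 16 tested. The choline kinase *ckb-2*, of the first step in phosphatidylcholine synthesis, went from 9.58, 9.82, 9.72 and 9.74 to 10.33, 10.33, 10.22 and 9.93 without overlap (0.49 ± 0.09, adjusted p = 0.0169, limma). Of the other 10 tested genes of that class none passed. *ckb-4*, *ckb-1* and *pcyt-1* were higher in all 4 pairs (0.23, 0.13 and 0.10), *cka-1* was lower in all 4 (−0.08), and *cka-2*, *cept-1*, *psd-1*, *sams-1*, *sams-3* and *sams-4* had mixed signs.

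**Figure D3:**
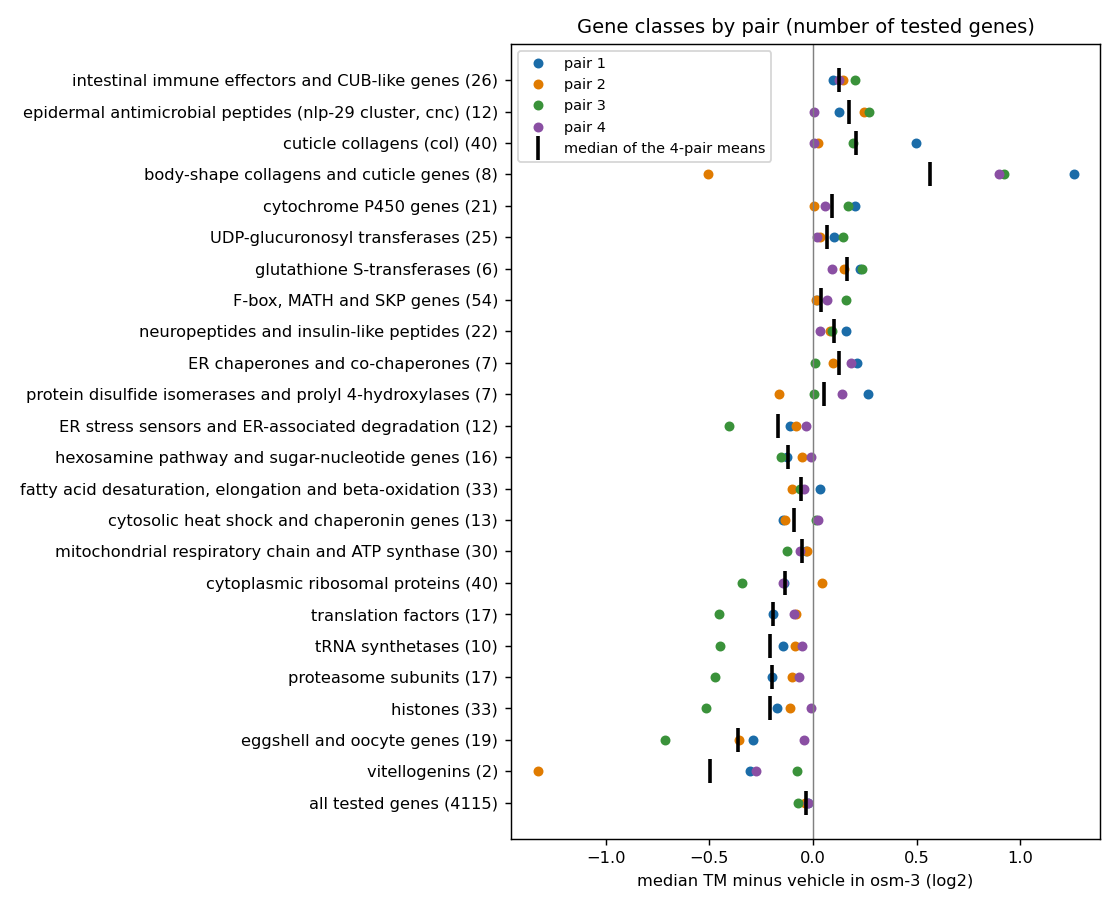
Median TM minus vehicle difference (log2) over the tested members of 23 gene classes and over all tested genes, with a point for each pair of *osm-3* libraries and a black bar for the median of the gene means. Pair 3 (green) lies lowest in eggshell and oocyte genes (−0.71), histones, the proteasome and translation, where pair 4 (purple) lies near 0, and pair 2 (orange) stands apart in body-shape genes (−0.51) and vitellogenins (−1.33).

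The decreases were of like size to the increases, with medians of −0.39 and 0.37, but lay in more strongly expressed genes. The quartile of genes with the highest vehicle values held 127 of the 212 lower genes and 8 of the 130 higher. Of the 212 lower genes, 21 lay in any of the 45 gene classes, as did 55 of the 130 higher genes. The share of all tested genes in a class was not counted, so neither count can be called low or high. Among the classes, eggshell and oocyte genes held the most decreases. Of 19 tested eggshell and oocyte genes, 7 fell (all tested genes, 5.15%) and none rose, 13 were lower in all 4 pairs (25.9%), and the median was −0.36. *cpg-1*, a chondroitin proteoglycan of the eggshell, went from 15.10, 14.67, 15.06 and 15.28 to 14.64, 13.85, 14.14 and 15.27. Pairs 1 to 3 fell by 0.46, 0.82 and 0.93 on the log2 scale while pair 4 fell by 0.01 (mean −0.56 ± 0.14, adjusted p = 0.0332, limma). *cgh-1*, an RNA helicase of germ granules, *glp-1*, the germline Notch receptor, and *oma-1*, an oocyte maturation factor, fell by 0.52 ± 0.13, 0.45 ± 0.11 and 0.37 ± 0.09 on the log2 scale. The medians of the class in pairs 1 to 4 were −0.29, −0.36, −0.71 and −0.04. All 7 germline markers were below 0 in their mean difference, as were 2396 of the 4115 tested genes, and 4 of the 7 fell past the test (all tested genes, 5.15%). Their summed normalised count ran from 57931 to 86958 in vehicle libraries and from 38835 to 84780 under TM. It was lower under TM in each pair, with 84780 against 86958 in pair 4. The part of germline content in the decreases was not tested.

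Housekeeping classes had medians below 0, with few genes past the test. The quartile of all tested genes with the highest vehicle values had a median of −0.19. Of the 1814 genes past the filter at 3 log2 units, 794 were lower in all 4 pairs. Whether the housekeeping classes fell more than other genes of like level was not tested. Of 17 proteasome subunits, *rpn-2* fell by 0.38 ± 0.10 on the log2 scale and 11 were lower in all 4 pairs (all tested genes, 25.9%), with a median of −0.20. The 17 translation factors, 10 tRNA synthetases and 40 ribosomal proteins gave 0 calls in limma and in voom, with 11, 6 and 5 lower genes at an unadjusted p under 0.05. In these classes 12, 6 and 16 genes were lower in all 4 pairs, and the medians were −0.19, −0.21 and −0.13. With quantile normalization these medians were −0.07, −0.05 and 0.01, and that of the proteasome was −0.05. Of 33 histone genes, the linker histone *hil-4* fell by 0.40 ± 0.10 on the log2 scale, 31 were below 0, and the 8 that were lower in all 4 pairs were a share near that of all tested genes (25.9%). Many histone genes are near-identical copies and share reads. In each of these 5 classes pair 3 had the lowest median of the 4 pairs, between −0.34 and −0.52.

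Apart from the drug metabolism genes, the 10 largest decreases were in genes with long transcripts. *him-4*, the extracellular matrix protein hemicentin (chromosome X, 9717565 to 9753764, 16719 exonic bases), fell by 0.62, 0.42, 1.24 and 0.53 on the log2 scale (mean −0.70 ± 0.12, adjusted p = 0.00955, limma). *unc-54*, the body wall muscle myosin heavy chain, fell by 0.58 ± 0.10 on the log2 scale, *trr-1*, a large chromatin cofactor, by 0.58 ± 0.12, *pole-1*, a DNA polymerase subunit, by 0.58 ± 0.11 and *set-9* by 0.58 ± 0.12. *ubr-5* and *pqn-20* fell by 0.56 each. *unc-89*, a giant muscle protein related to obscurin, fell by 0.52 ± 0.10. With *unc-54* it was 1 of 2 among 13 muscle markers to fall (all tested genes, 5.15%). The median of these markers was −0.05 (0.06 after quantile normalization, and 0.02 if corrected for length).

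The median exon length was 3207 bases among the genes that fell, 1070 among those that rose and 1471 over all tested genes. The longest quartile of genes (2235 to 27088 bases) held 150 of the lower genes and 7 of the higher, and the shortest (91 to 960 bases) held 10 and 51. The median difference in the longest quartile was −0.11, −0.23, −0.28 and −0.05 in pairs 1 to 4, against 0.02, 0.11, 0.06 and 0.00 in the shortest. Level moved with the difference too, since the quartile of genes with the highest vehicle values held 127 of the lower and 8 of the higher genes. Rank correlations with length, across genes that are not independent, were −0.23, −0.61, −0.35 and −0.13 in the 4 pairs, and those with the vehicle level were −0.46, −0.29, −0.51 and −0.28. With a correction for length, chosen after seeing the data, 154 genes were higher and 107 lower, so that the larger share passed from the decreases to the increases. With quantile normalization it was 94 and 43. Among the long genes named above, *him-4* (−0.35, adjusted p = 0.109), *trr-1* (−0.27, 0.0597), *ubr-5* (−0.28, 0.0597) and *unc-89* (−0.12, 0.238) lost their calls with the length correction (limma), and *ubr-5*, *unc-89*, *pqn-20* and *set-9* with quantile normalization. The eggshell and oocyte median stayed below 0 in both, at −0.29 and −0.20, and so did *cyp-35A2*, *cyp-35C1* and *ugt-22* past the test. Whether RNA quality or library composition took part in the length pattern was not tested.

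**Figure D4:**
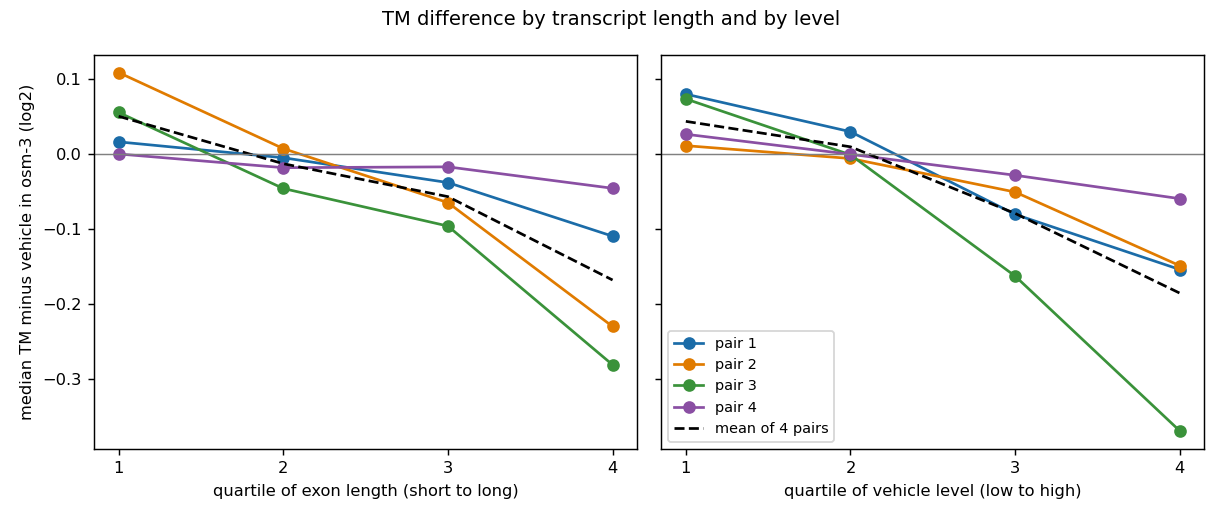
Median TM minus vehicle difference (log2) in *osm-3* mutants by quartile of exon length (left) and by quartile of the mean vehicle level (right), with a line for each pair and a dashed line for the mean of 4 pairs. All 4 pairs fall toward long and strongly expressed genes, reaching −0.28 in pair 3 for length and −0.37 in pair 3 for level.

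The response of *osm-3* mutants was then set against that of WT animals in 1 limma fit over all 16 libraries, with a block for each genotype and replicate number. The response was higher in *osm-3* mutants for 45 genes (1.09% of those tested) and lower for 21 (0.510%). In the same fit over all 16 libraries, TM raised 159 genes (3.86%) and lowered 85 (2.07%) in WT animals. That fit called 130 genes higher and 230 lower in *osm-3* mutants. The *osm-3* calls and SEs used below are still those of the fit to the *osm-3* libraries alone. Of the 21 genes with a lower response, 20 rose in WT animals and 3 of them, *ckb-2*, *dnj-7* and *gad-3*, also rose in *osm-3* mutants.

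*ckb-2* rose by 0.49 in *osm-3* mutants and by 2.63 in WT animals, a difference of −2.14 ± 0.13 (adjusted p = 6.98e-07, limma). *gale-1* followed with 0.29 against 1.82 (−1.53 ± 0.12, adjusted p = 5.92e-06, limma) and the serpin gene *srp-7* with 0.19 against 1.66 (−1.47 ± 0.16, adjusted p = 0.000202, limma). Of the 14 tested ER chaperone and disulfide isomerase genes, 7 rose in WT animals and the same 7 had a lower response in *osm-3* mutants. They were *hsp-4* (−0.89), *pdi-6* (−0.83), *C14B9.2* (−0.80), *hsp-3* (−0.70), *pdi-2* (−0.70), *pdi-1* (−0.60) and *dnj-7* (−0.53). *gfat-1* was the only gene that fell in *osm-3* mutants and also differed from WT animals in its response, by −0.72 ± 0.15 (adjusted p = 0.0282, limma).

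In the other direction, 29 of the 45 genes fell in WT animals past the test and 16 rose in *osm-3* mutants. Of the 45, 16 were *col* genes, and 9 of the 12 *col* genes that rose in *osm-3* mutants were among them. All 12 had a negative mean in WT animals, none past the test there, while over the 40 *col* genes 11 fell in WT animals (all tested genes, 2.07%) with a median of −0.31. *col-138* differed by 1.52 ± 0.28 (1.14 against −0.38) and *F41F3.3* by 1.80 ± 0.38 (1.29 against −0.50). For *pud-1.1*, *osm-3* mutants moved by 0.16 ± 0.09 and WT animals by −1.36 (difference 1.53 ± 0.17, adjusted p = 0.000202, limma). *nlp-27* was the only gene that rose in *osm-3* mutants and fell in WT animals past the test in each (0.37 against −0.99).

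For most of the other genes the difference between genotypes did not pass. Of the 130 genes that rose in *osm-3* mutants, 93 were above 0 in WT animals. Of these 130, 46 rose in WT animals past the test (all tested genes, 3.86%) and 19 differed between genotypes. Of the 212 that fell, 204 were below 0 in WT animals. Past the test, 7 of the 212 fell in WT animals (all tested genes, 2.07%), and 1 differed between genotypes. Rank correlations of the WT difference with transcript length were 0.22, −0.40, −0.04 and −0.25 in WT pairs 1 to 4. The part of length in the shared direction was not tested. The WT differences of *cyp-35A2*, *cyp-35C1* and *ugt-22* were −0.81, −0.67 and −0.66, and those of *C17H12.8*, *dod-24* and *msra-1* were 0.86, 0.63 and 0.83. *pgp-5* rose by 0.42 in WT animals, with a difference between genotypes of 0.03 ± 0.12 (adjusted p = 0.922, limma).

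**Figure D5:**
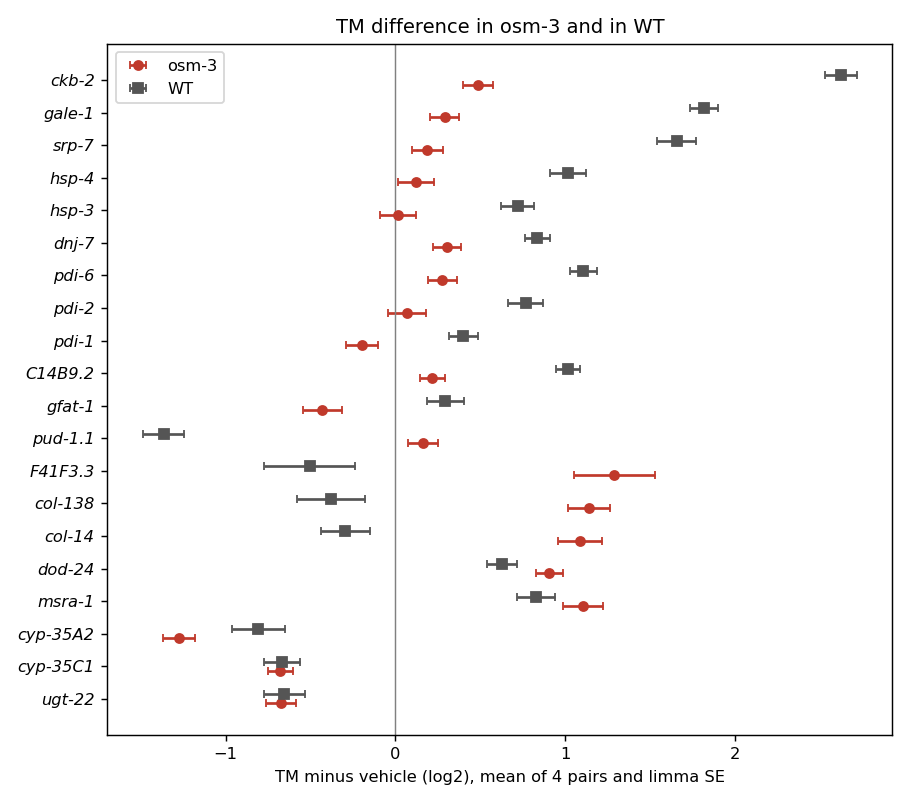
TM minus vehicle (log2) in *osm-3* mutants (red circles) and WT animals (grey squares) for 20 genes, each the mean of 4 pairs with its limma SE. The *osm-3* SE is from the fit to the *osm-3* libraries alone and the WT SE from the fit over all 16 libraries. WT animals lie far to the right for *ckb-2* (2.63 against 0.49), *gale-1*, *srp-7* and the ER genes, *osm-3* mutants for *F41F3.3*, the collagens and *pud-1.1*, and both lie on the same side for *dod-24*, *msra-1*, *cyp-35A2*, *cyp-35C1* and *ugt-22*.

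Across the 45 gene classes, 17 held only genes that rose, 6 only genes that fell, 4 both and 18 none. The classes without a call in limma included sperm genes, whose *msp* median was 0.13 and 0.51 in pairs 1 and 2 and −0.18 and −0.26 in pairs 3 and 4, the 30 respiratory chain genes (median −0.05, or 0.07 with quantile normalization) and 12 cilia genes (−0.01, or 0.09 with the length correction). Of 22 neuropeptide and insulin genes, *flp-8* alone passed and rose by 0.24 ± 0.06, a share near the 3.16% of all tested genes. Of the 22, 8 were higher in all 4 pairs (13.9%), none was lower in all 4 (25.9%), and the median was 0.10.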

How the data were processed

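The authors depleted ribosomal RNA, sequenced strand-specific libraries, mapped reads to WBcel235 cDNA of Ensembl release 94 with kallisto 0.43.0-1, added them up by gene and, with DESeq2 1.16.1, computed the variance-stabilized log2 values they deposited. Their tables of fold changes and p-values were not used. The log2 values converted back to whole reads (100% within 0.01), with 0.185% to 0.454% of the reads of the *osm-3* libraries in an entry without a gene name, which was left out. Genes were matched to the WBcel235 annotation of Ensembl release 115 (8224 of 8347).

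Differences were fitted with limma 3.58.1 in R 4.3.3 (eBayes with trend, two-sided, Benjamini-Hochberg over 4115 genes, threshold 0.05) on the 8 *osm-3* libraries with the replicate number as a block, and for the comparison with WT on all 16 with a block per genotype and number. Same-numbered libraries deviated together from their group means (correlations 0.33, 0.36, 0.36 and 0.86), so the numbers were taken to pair them, although number 2 correlated at 0.56 with a differently numbered library (at most 0.11 for the others). Fits were tested on simulated data. Named are the 10 largest increases and decreases among genes past the threshold with 1 sign in all 4 pairs, up to 4 genes of smallest p per list, all tested genes of 5 ER, choline and *pgp* lists, and the 3 largest differences from WT each way. The members and the 45 class and 6 marker lists were chosen with earlier results of these data known. The alternatives were fits without the block or with all 16 libraries, no filter or a filter at 3 log2 units, no trend, robust eBayes, library weights, quantile normalization, median centring, normalized counts plus 1 on the log2 scale, and omission of each replicate, with voom on the reads and a length correction chosen after seeing the data. With a 4 against 4 design of whole animals, p-values of the fits with the block measure the spread of the differences within these pairs. In the fit to the *osm-3* libraries they rest on 3 residual degrees of freedom and 9.01 drawn from all genes by eBayes.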

Additional observations from a re-analysis of the deposited data

Results flagged for a closer look

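The vehicle library of pair 3 stood apart in depth, with 4173301 reads against 7554487 to 7928703 in the other 3. For 7 genes named above, 1 vehicle library of *osm-3* lay far from the other 3. The vehicle library of pair 2 was high in *dod-24* (8.21 against 7.84 to 7.87) and *pgp-4* (8.73 against 8.62 to 8.64) and low in *pdi-1* (12.20 against 12.49 to 12.53) and *sams-4* (10.53 against 10.75 to 10.80). That of pair 3 was low in *F09E8.2* (10.22 against 10.34 to 10.36), that of pair 4 in *cept-1* (8.77 against 9.07 to 9.08), and that of pair 1 in *sams-1* (11.22 against 11.59 to 11.64). These are 8 of 146 groups of 4 values examined, and chance alone marks about 1 in 20.

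The test of the difference between genotypes separated 29 genes among those named here. The response of *osm-3* mutants was lower than that of WT animals for *ckb-2* (−2.14), *gale-1* (−1.53), *srp-7* (−1.47), *gad-3* (−1.11), *hsp-4* (−0.89), *catp-3* (−0.83), *pdi-6* (−0.83), *C14B9.2* (−0.80), *gfat-1* (−0.72), *hsp-3* (−0.70), *pdi-2* (−0.70), *pdi-1* (−0.60) and *dnj-7* (−0.53). It was higher for *F41F3.3* (1.80), *pud-1.1* (1.53), *E01G4.6* (1.52), *nlp-27* (1.36), *asp-13* (0.71), *asp-12* (0.70) and *sqrd-1* (0.57), and for the *col* genes *col-138* (1.52), *col-14* (1.38), *col-175* (1.34), *col-60* (0.92), *col-62* (0.82), *col-145* (0.81), *col-39* (0.69), *col-113* (0.57) and *col-114* (0.53).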

How the results depend on the processing

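The 342 calls of the paired fit (130 higher, 212 lower) changed with several choices. With no replicate block there were 8 higher and 3 lower, and over all 16 libraries without the block 2 and 1. With no filter there were 0 and 0 in limma (1510 genes at an unadjusted p under 0.05), with the filter at 3 log2 units 40 and 418, with library weights 288 and 532, with median centring 209 and 387, with robust eBayes 326 lower, with quantile normalization 43 lower and with the length correction 107 lower. Leaving out 1 pair gave 0 to 232 higher and 0 to 608 lower, the 0 without replicate 3 (753 at an unadjusted p under 0.05). The cause was not tested. Each of the 342 genes kept its direction in every alternative that tested it, but most alternatives could not have changed it. The block, the filter, the trend, robust eBayes and the fits over all 16 libraries left each difference as it was. Leaving out a pair, or the log2 of counts plus 1, could not turn genes with 1 sign in all pairs, as most of the 342 had. Library weights, quantile normalization, median centring, voom and the length correction could have turned a gene. Genes with 1 sign in all pairs numbered 990 higher with no filter, 149 higher with the filter at 3 log2 units, 704 lower with quantile normalization, 646 to 860 higher and 1136 to 1452 lower with 1 pair left out. For the difference from WT, no replicate block gave 9 higher and 11 lower, the filter at 3 log2 units 21 higher, library weights 78 higher, and leaving out 1 pair 25 to 72 higher and 18 to 19 lower.

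Of 70 genes followed, 16 changed sign in at least 1 alternative, none of them past the test. With the length correction these were *cyn-5* (−0.0126), *C47E12.3* (0.0518), *atf-6* (0.0172), *psd-1* (0.0154), *pgp-12* (0.164) and *pgp-14* (0.154). With quantile normalization they were *C47E12.3* (0.0236), *cup-2* (0.0914), *sel-1* (0.0408), *cka-2* (−0.0196), *psd-1* (0.0176) and *pgp-10* (−0.00758), with library weights *C47E12.3* (0.000863), *pgp-12* (0.0519) and *pgp-14* (0.167), and with median centring *C47E12.3* (0.00826) and *pgp-12* (0.00371). With 1 pair left out the lowest and highest values were −0.00621 and 0.0603 for *cyn-5*, −0.0951 and 0.0202 for *fkb-7*, −0.0453 and 0.110 for *hsp-3*, −0.0224 and 0.112 for *erp-44.2*, −0.0137 and 0.198 for *pdi-2*, −0.0163 and 0.132 for *phy-2*, −0.100 and 0.0556 for *cup-2*, −0.0223 and 0.0381 for *cka-2*, −0.0656 and 0.0196 for *pgp-12*, −0.0365 and 0.109 for *pgp-13*, and −0.188 and 0.0810 for *pgp-14*.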
